A study of Mus musculus with 16 samples.

Results

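The loci of Fezf1 and Fezf2 and the start of Dnmt3l, which lies inside the gene Aire, held 14 of the 29472 merged peaks of H3K4me2 in this series. They were taken by name: 5 peaks carried the gene name Fezf1, 8 carried Fezf2 and 1 carried Dnmt3l. No peak carried the name Aire, and the Dnmt3l peak was annotated to exon 3 of 12 of Aire, so it is called the Aire exon peak below. The set was proposed with the levels of Fezf1 and of the Aire exon peak in these libraries in view, and its members were chosen by name after those measured levels were known. The levels of all 14 peaks are therefore a description, and no test was made of them.

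The study took thymi of C57BL/6 mice, sorted their medullary epithelial cells (mTEC) into 4 populations and profiled H3K4me2, dimethylated lysine 4 of histone H3, by chromatin immunoprecipitation and sequencing in 2 libraries of each. All 4 populations were sorted from thymus as CD45- and Epcam+. Cells of mTEC-I were in addition MHCII low and Itgb4+, cells of mTEC-II were MHCII high, cells of mTEC-III were Ly6D+, and cells of mTEC-IV were MHCII low, Itgb4- and L1cam+. The labels give no age of the mice and do not say whether the replicates came from separate animals, so each p-value reflects the spread among these libraries alone, and that spread may be technical. The 8 whole-cell extract samples were not analysed here.

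Aire is the nuclear factor that mature mTEC use to express genes of peripheral tissues, so that developing T cells meet those self antigens in the thymus. Fezf2 is a zinc finger transcription factor that acts in mTEC on a largely different set of tissue antigens, and Fezf1 is its paralogue, best known from the development of the forebrain and the olfactory system. Dnmt3l is a cofactor of the de novo DNA methyltransferases without catalytic activity of its own. H3K4me2 marks promoters and enhancers, both active and poised, and is not a measure of transcription. In bulk chromatin, fewer cells that carry the mark and less of the mark in each cell cannot be told apart.

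The promoter sequences of the 4 genes are shown because the peaks are described by their distance from these starts. Each is the 250 bases before the start in RefSeq, build GRCm38.p6, read 5′ to 3′ on the strand of the gene. Capitals mark matches, on either strand, to TATAAA, to CCAAT (read as ATTGG on the other strand) or to the NF-kappaB consensus.
Aire promoter, minus strand, chr10:78043611-78043860: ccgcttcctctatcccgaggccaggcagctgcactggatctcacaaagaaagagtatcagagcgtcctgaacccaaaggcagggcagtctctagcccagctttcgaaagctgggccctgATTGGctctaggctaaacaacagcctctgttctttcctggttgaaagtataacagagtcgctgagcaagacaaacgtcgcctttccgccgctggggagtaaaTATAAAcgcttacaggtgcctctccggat
Dnmt3l promoter, plus strand, chr10:78042037-78042286: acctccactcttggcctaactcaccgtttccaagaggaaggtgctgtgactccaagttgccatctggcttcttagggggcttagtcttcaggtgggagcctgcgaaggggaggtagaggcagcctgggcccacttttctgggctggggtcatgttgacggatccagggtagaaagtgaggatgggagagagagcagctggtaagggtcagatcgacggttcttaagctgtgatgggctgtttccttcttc
Fezf1 promoter, minus strand, chr6:23248265-23248514: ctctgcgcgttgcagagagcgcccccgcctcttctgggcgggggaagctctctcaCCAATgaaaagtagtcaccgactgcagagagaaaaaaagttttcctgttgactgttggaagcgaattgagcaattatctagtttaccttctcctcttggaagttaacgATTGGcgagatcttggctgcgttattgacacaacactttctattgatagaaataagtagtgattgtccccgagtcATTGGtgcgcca
Fezf2 promoter, minus strand, chr14:12345866-12346115: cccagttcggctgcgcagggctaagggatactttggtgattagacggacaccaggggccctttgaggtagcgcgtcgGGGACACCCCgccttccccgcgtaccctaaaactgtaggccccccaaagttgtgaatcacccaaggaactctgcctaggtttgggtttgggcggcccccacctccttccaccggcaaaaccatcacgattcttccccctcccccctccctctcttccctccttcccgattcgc

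The Aire window held 1 TATAAA, which began 29 bases before the start, and 1 CCAAT at 131 bases. Of the 32851 windows of this length in the table, 12.4% held TATAAA and 33.8% held CCAAT. The Fezf1 window held 3 CCAAT matches, at 195, 87 and 12 bases before the start. The Fezf2 window held 1 match to the NF-kappaB consensus at 173 bases, which 7.25% of all windows also held. The Dnmt3l window held none of the 3 motifs. The windows held 11 CpG dinucleotides for Aire, 5 for Dnmt3l, 12 for Fezf1 and 14 for Fezf2, against a median of 6 over all windows. These matches are a description of letters and say nothing of binding. Of 3 Dnmt3l starts in the table the first was used. In GRCm38.p6 it lies 1323 bases from the Aire start, inside Aire and on the opposite strand. The merged peak over it was 4537 bases wide, so its signal cannot be given to either gene.

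Levels are the authors' tags per 10000000 tags of a library. Library totals ran from 1702103.5 tags in mTEC-I replicate 2 to 15412132.5 tags in mTEC-II replicate 1, and 31.9% to 35.4% of tags lay in merged peaks. In mTEC-I replicate 2, 1 tag was worth 5.88 tags per 10000000 and the limit that a count of 0 allows was 17.63, against at most 4.64 in the other 7 libraries. Of 10 marker genes of medullary thymic epithelium all had peaks. Foxn1, the transcription factor of thymic epithelium, was at 608 ± 2 for mTEC-II, 458 ± 3.6 for mTEC-I, 441 ± 40 for mTEC-III and 180 ± 7.3 for mTEC-IV (mean ± SD, n = 2). Epcam was at 1116 ± 35 for mTEC-IV, 968 ± 120 for mTEC-III, 855 ± 11 for mTEC-II and 836 ± 14 for mTEC-I. The basal keratin genes Krt5 and Krt14 ran the other way, with Krt5 at 411 ± 3.5 in mTEC-I against 29.6 ± 4.7 in mTEC-IV, and Krt14 at 285 ± 33 against 48.5 ± 5.2. In the limma fit described further on, 6 of these markers were called higher and 4 lower in mTEC-IV, 3 and 6 for mTEC-I, 3 and 3 in mTEC-II, and 4 and 3 for mTEC-III. The shares of all genes called in that fit were 20.4% and 12.6% in mTEC-IV, and 17.2% and 17.7% in mTEC-I. They were 8.56% and 11.2% in mTEC-II, and 12.1% and 16.7% in mTEC-III. Of 8 thymocyte markers only Ptprc had a peak. The 4 fibroblast markers measured of 5 summed to 803 to 885 in mTEC-I and to 305 to 504 in the other 6 libraries. The 4 endothelial markers summed to 798 to 807 in mTEC-IV and to 279 to 408 elsewhere. Tek (407 ± 13) and Cdh5 (113 ± 15) were called higher in mTEC-IV, while Kdr was at 222 ± 8.5 there against 243 ± 7.4 in mTEC-I, and Pecam1 had its lowest mean there (59.7 ± 4.2). The 4 B cell or dendritic cell markers measured of 7 summed to 406 to 428 in mTEC-IV and to 89.1 to 167 elsewhere, with Ptprc at 267 ± 3.4 against means of 32 to 43.9. Cd79a was also highest in mTEC-IV (67.4 ± 14), but Itgax was lowest there (10.4 ± 2.2) and highest in mTEC-III (84.7 ± 12). Flt3 was highest in mTEC-II (88.8 ± 1.2) and was called higher in mTEC-IV as well (72.5 ± 2.2). Of these 4 markers, 3 were called higher and 1 lower in mTEC-IV. The part of these markers in the results was not tested.

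The Aire exon peak (mm9, chr10:77503091-77507627) was highest in mTEC-II. Its level was 212 and 215 in the 2 mTEC-II libraries, 97.2 and 111 for mTEC-III, 97.9 and 99.2 in mTEC-IV, and 58.8 and 79.3 in mTEC-I. Both mTEC-II libraries lay above all 6 others and both mTEC-I libraries lay below all 6 others, while mTEC-III and mTEC-IV overlapped. The means were 214 ± 2.8 in mTEC-II, 104 ± 10 in mTEC-III, 98.5 ± 0.92 in mTEC-IV and 69.1 ± 14 in mTEC-I (SD, n = 2). The mTEC-II mean was 2.05 times that of mTEC-III, 2.17 times that of mTEC-IV and 3.09 times that of mTEC-I. On the log2(value + 1) scale mTEC-II stood 1.26 above the mean of the other 3 populations.

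**Figure D1:**
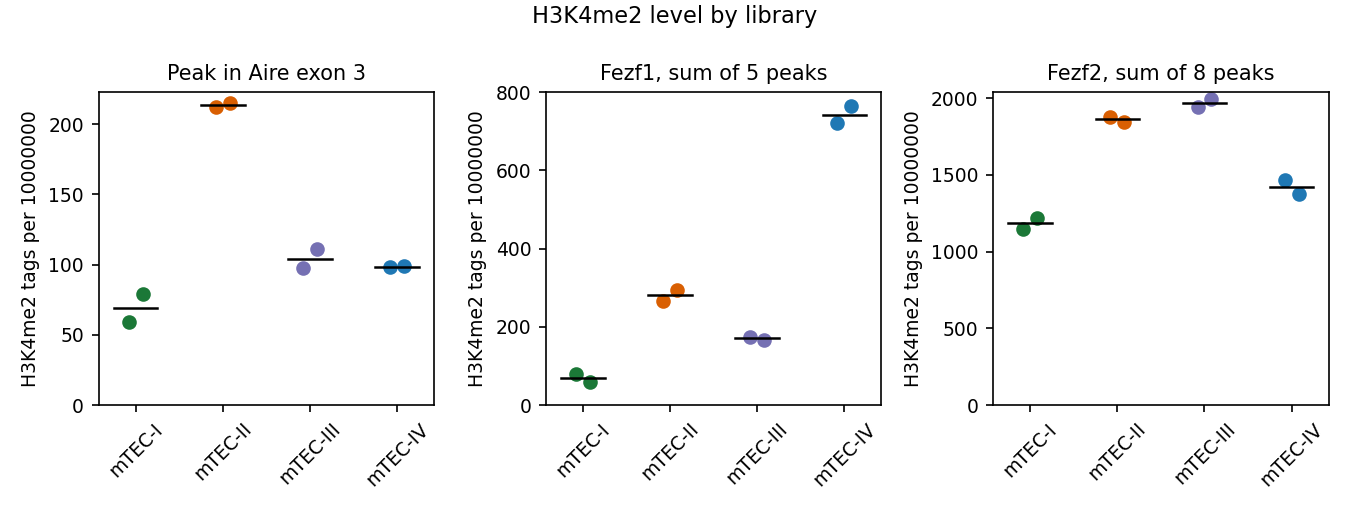
H3K4me2 in tags per 10000000 (vertical axis, from 0) for the Aire exon peak, the sum of the 5 Fezf1 peaks and the sum of the 8 Fezf2 peaks, with 1 point per library and a line at the mean of each population. The Aire exon peak is highest in mTEC-II (212 and 215), Fezf1 in mTEC-IV (720 and 765), and Fezf2 in mTEC-III (1945 and 1998). For Fezf2 the counting intervals of mTEC-III and mTEC-II overlap. Of the 5 Fezf1 peaks, 3 were called in mTEC-IV alone, which favours mTEC-IV in that sum.

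All 5 Fezf1 peaks were highest in mTEC-IV, and the means of mTEC-I were the lowest. At 3 of the 5 the counting interval of mTEC-I overlapped that of another population. Their sum was 742 ± 31 in mTEC-IV, 281 ± 20 for mTEC-II, 171 ± 5.8 for mTEC-III and 68.8 ± 14 for mTEC-I (SD, n = 2), and no neighbours in that order overlapped. Of the 5 peaks, 3 were in the authors' mTEC-IV list alone and made up 432 ± 1.8 of the mTEC-IV sum. The sum therefore favours mTEC-IV by that choice. The promoter peak of Fezf1 (mm9, chr6:23196619-23200926) was at 220 and 252 in mTEC-IV, 155 and 188 in mTEC-II, 97.2 and 97.7 for mTEC-III, with 46.4 and 29.4 in mTEC-I. The mTEC-IV mean of this peak was 1.38 times that of mTEC-II, 2.42 times that of mTEC-III and 6.23 times that of mTEC-I. The intergenic peak 5892 bases upstream (mm9, chr6:23203215-23205097) kept the same order, with 66.5 and 81.8 in mTEC-IV, 51.9 and 52.6 in mTEC-II, 32.8 and 27.7 for mTEC-III, with 18.6 and 23.5 in mTEC-I. At this pair of peaks the levels fell stepwise over the 4 populations, and no libraries of neighbouring populations mixed. At 5892 bases the exact Poisson 95% intervals of mTEC-I (11.2 to 31.8) and mTEC-III (22.3 to 39.8) overlapped, and their difference was not tested.

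The other 3 Fezf1 peaks lay inside introns of Cadps2, a gene for a protein of dense core vesicle release, between 158505 and 198404 bases upstream of Fezf1, and their gene assignment rests on the nearest start alone. At 158505 bases (mm9, chr6:23354390-23359148, Cadps2 intron 12 of 28) the level was 214 and 207 in mTEC-IV, 18.8 and 12.6 in mTEC-II, 18.3 and 12.4 for mTEC-III, with 7.74 and 0 in mTEC-I. At 162934 bases (chr6:23360102-23362294, intron 11) it was 124 and 125 in mTEC-IV, 17.2 and 16.3 in mTEC-II, 9.46 and 13.5 for mTEC-III, with 4.64 and 5.88 in mTEC-I. At 198404 bases (chr6:23395859-23397477, intron 8) it was 95.1 and 98.6 in mTEC-IV, 23.4 and 24.8 in mTEC-II, 17.7 and 15.9 for mTEC-III, with 1.55 and 0 in mTEC-I. The mTEC-IV mean was 13.4, 7.42 and 4.02 times that of mTEC-II at the 3 peaks. These peaks were in the authors' mTEC-IV list alone, so they entered the merged peaks through the population where they are high. A wide gap is built in by that choice, and it cannot be set against the promoter peak, which was in 3 lists. The mTEC-I levels rest on few tags. At 198404 bases both mTEC-I libraries together held 1 tag, a level of 1.22 with an exact Poisson 95% interval of 0.031 to 6.82, and at 158505 bases they held 5 tags, a level of 6.12 with an interval of 1.99 to 14.3. At 158505 and 162934 bases the mTEC-I interval overlapped those of mTEC-II and mTEC-III. Overlap of intervals is not a test of a difference, and none was made at these peaks. These intervals and limits cover counting error only.

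Per kb of merged peak, the 5 Fezf1 peaks were nearly even in mTEC-IV, at 54.9 for the promoter, 39.4 at 5892 bases, 44.3 at 158505 bases, 56.7 at 162934 bases and 59.8 at 198404 bases. In mTEC-II the same levels per kb were 39.9, 27.7, 3.3, 7.63 and 14.9. The peaks beyond 20 kb therefore held 60.2% and 56.3% of the Fezf1 sum in mTEC-IV, 22.3% and 18.2% in mTEC-II, 25.9% and 25% for mTEC-III, with 17.6% and 10% in mTEC-I. Since these distal peaks were called in mTEC-IV alone, their levels and shares favour mTEC-IV by that choice. Summed over the 3 distal peaks the level was 432 ± 1.8 in mTEC-IV, 56.5 ± 4 in mTEC-II, 43.6 ± 2.6 in mTEC-III and 9.9 ± 5.7 in mTEC-I.

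**Figure D2:**
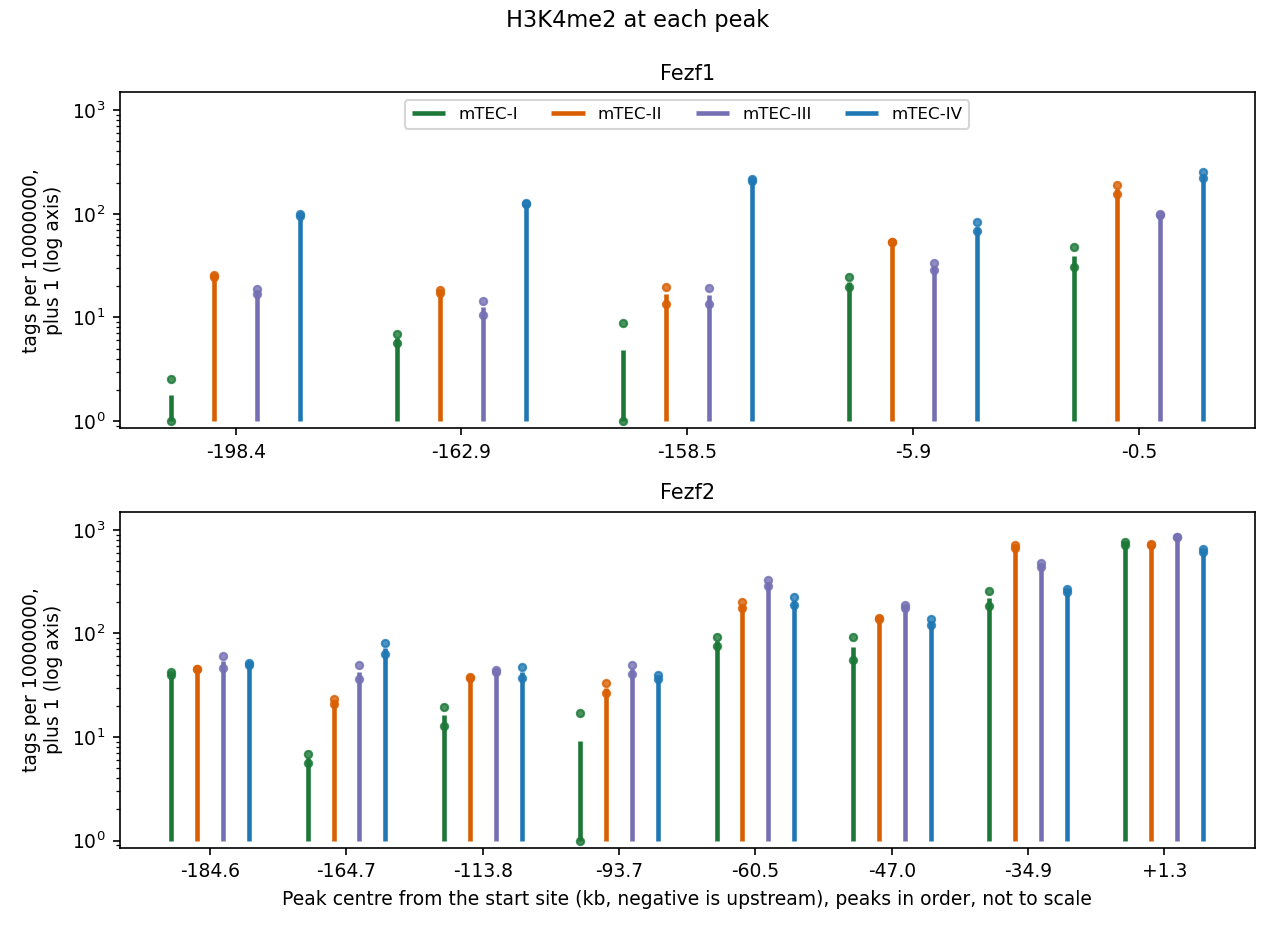
H3K4me2 at each Fezf1 (top) and Fezf2 (bottom) peak, in tags per 10000000 plus 1 on a log axis; peaks stand in order of the distance of their centre from the start site, not to scale. Points are libraries and lines rise to the population mean. The 3 Fezf1 peaks beyond 20 kb, called in mTEC-IV alone, lie at 95.1 to 214 in mTEC-IV and at 0 to 24.8 in all other libraries. The Fezf2 start peak lies between 608 and 850 in all 8 libraries.

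At the start of Fezf2 a broad peak was present in every population. That peak (mm9, chr14:13170448-13183655) was 13208 bases wide, at percentile 99.8 of all peak widths, and covered the start and exon 2 of 5. Its level was 850 and 847 in mTEC-III, 759 and 720 in mTEC-I, 726 and 715 for mTEC-II, and 652 and 608 in mTEC-IV. Both mTEC-III libraries were highest and both mTEC-IV libraries lowest, and mTEC-I and mTEC-II overlapped. The exact Poisson 95% intervals of mTEC-III (804 to 894) and mTEC-I (693 to 813) overlapped too. The whole range was narrow: the mTEC-III mean of 848 ± 2.2 was 1.35 times the mTEC-IV mean of 630 ± 31 (SD, n = 2). The start peak was 1 of the 2 members at which mTEC-I was not below all other libraries.

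The other 7 Fezf2 peaks lay upstream, inside introns of Cadps, a gene for a calcium-dependent activator of vesicle secretion. The nearest, centred 34905 bases upstream in intron 27 of 28 (mm9, chr14:13206500-13220069, 13570 bases), was highest in mTEC-II, at 708 and 663. It was at 438 and 475 in mTEC-III, 267 and 252 in mTEC-IV, and 182 and 258 in mTEC-I. The mTEC-II mean of 685 ± 32 was 1.5 times that of mTEC-III, 2.64 times that of mTEC-IV and 3.11 times that of mTEC-I, and mTEC-IV and mTEC-I overlapped. This order, with mTEC-II first and mTEC-I last, was also that of the Aire exon peak, and mTEC-II stood above all 6 other libraries at these 2 members of the 14.

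The next 2 peaks upstream, both also in Cadps intron 27, were highest in mTEC-III. At 47025 bases (mm9, chr14:13223022-13227786) the means were 180 ± 7.5 in mTEC-III, 140 ± 2.1 in mTEC-II, 128 ± 11 in mTEC-IV and 73 ± 26 in mTEC-I. At 60534 bases (chr14:13235700-13242126) they were 307 ± 30 in mTEC-III, 205 ± 26 in mTEC-IV, 186 ± 17 in mTEC-II and 82.7 ± 12 in mTEC-I, with mTEC-IV and mTEC-II overlapping. The populations thus took different orders at 3 peaks of the same Cadps intron, mTEC-II leading at the first and mTEC-III at the second and the third.

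The 4 most distant Fezf2 peaks were smaller. At 93664 bases, in intron 25, the means were 44 ± 6.4 in mTEC-III, 37.1 ± 2.7 in mTEC-IV, 28.9 ± 4.7 in mTEC-II and 8.12 ± 11 in mTEC-I. At 113770 bases, in intron 20, mTEC-III, mTEC-IV and mTEC-II lay between 36.5 and 42.4 and overlapped in part, with mTEC-I at 15.2 ± 4.8. At 184584 bases, in intron 9, the 4 means lay between 39.9 and 52.6, and the highest was 1.32 times the lowest, the narrowest span among the upstream peaks. The counting interval of mTEC-I there (26.8 to 55.3) overlapped those of all other populations, and at 93664 bases (6.3 to 23.3) it overlapped that of mTEC-II (22.9 to 35.6). At 93664 bases the interval of mTEC-III (34.3 to 55.2) overlapped those of mTEC-IV (28.7 to 47.4) and mTEC-II. The peak 164723 bases upstream, in intron 11 (mm9, chr14:13342298-13343906), had another order: 62.1 and 80 in mTEC-IV, 35.3 and 48.3 in mTEC-III, 22.1 and 20 in mTEC-II, and 4.64 and 5.88 in mTEC-I. It was the 1 Fezf2 peak at which mTEC-IV stood above all other libraries. In mTEC-I it rested on 4 tags over both libraries, a level of 4.9 with an exact Poisson 95% interval of 1.34 to 12.5. This peak was in the authors' mTEC-IV list alone, so it entered the merged peaks through the population where it is highest. The same holds for the peak at 93664 bases and mTEC-III.

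Summed over its 8 peaks, Fezf2 was at 1972 ± 38 in mTEC-III, 1863 ± 22 in mTEC-II, 1421 ± 63 in mTEC-IV and 1184 ± 50 in mTEC-I (SD, n = 2), and no neighbours in this order overlapped. Without the start peak, the 7 upstream peaks summed to 1143 ± 14 in mTEC-II, 1123 ± 40 in mTEC-III, 792 ± 32 in mTEC-IV and 444 ± 78 in mTEC-I. They held 61.4% and 61.3% of the Fezf2 sum in mTEC-II, 56.3% and 57.6% for mTEC-III, 55.6% and 55.9% in mTEC-IV, and 33.9% and 41% for mTEC-I. The peak at 34905 bases alone held 37.7% and 35.9% in mTEC-II, 22.5% and 23.8% for mTEC-III, 18.2% and 18.3% in mTEC-IV, and 15.8% and 21.2% for mTEC-I.

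**Figure D3:**
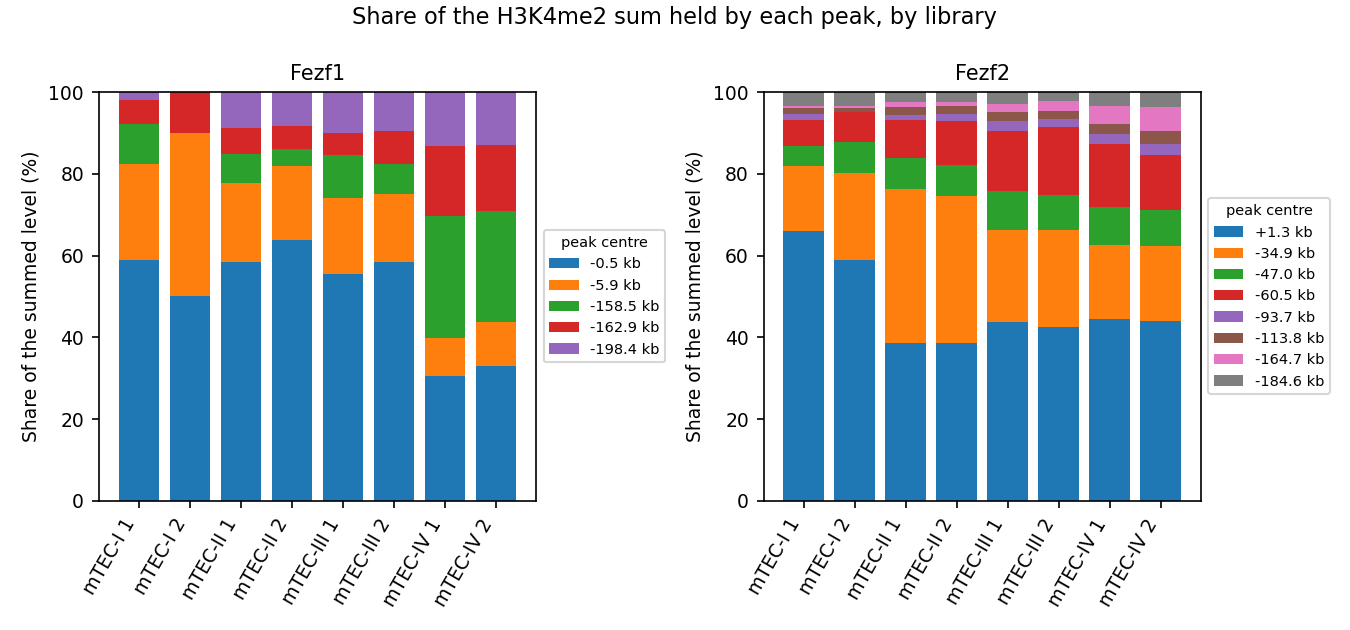
Share (%) of the summed H3K4me2 level of Fezf1 (left) and Fezf2 (right) held by each peak, with 1 bar per library and colours for the distance of the peak centre from the start site. The Fezf1 peaks beyond 20 kb, called in mTEC-IV alone, take over 56% only in the mTEC-IV bars. The Fezf2 peak at 34905 bases upstream takes its greatest share (37.7% and 35.9%) in the mTEC-II bars.

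Over the 14 peaks, both mTEC-I libraries lay below all others at 12 (15.5% of all 29469 peaks tested did so) and above all others at 0 (12.3% did so). At 5 of the 12 (Fezf1 at 5892, 158505 and 162934 bases, Fezf2 at 93664 and 184584 bases) the counting interval of mTEC-I overlapped that of another population, and at 7 it did not. Both mTEC-II libraries lay above all others at 2 peaks (10.2% of all peaks) and below all others at 0 (8.51%). Both mTEC-III libraries lay above all others at 4, all of Fezf2 (11.1%), and below all others at 0 (11.1%). At the Fezf2 start and at 93664 bases the counting interval of mTEC-III overlapped that of another population. Both mTEC-IV libraries lay above all others at 6, the 5 Fezf1 peaks and Fezf2 at 164723 bases (22.3%), and lay below all others at 1, the Fezf2 start peak (11.4%). Since the set was proposed from such levels, nothing is read from these counts. All 14 members passed the filter on low values.

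The authors' deposited peak lists, made for each population from both replicates combined, held 7036 peaks for mTEC-I, 23949 for mTEC-II, 19321 for mTEC-III and 22757 for mTEC-IV. The mTEC-I list, the shortest, overlapped the Fezf2 start peak and no other member. The share of all merged peaks that it overlaps was not counted, so nothing is read from this. Over the Aire exon peak, the authors' deposited table for mTEC-II gave 1 peak of 4303 bases, from 1941 bases before to 2361 bases after the Dnmt3l start, with a fold of 33 over the control. The authors' deposited tables gave a peak of 1275 bases in mTEC-III, from 653 to 1927 bases after that start with a fold of 10.1, and a peak of 1285 bases in mTEC-IV, from 1311 to 2595 bases after it with a fold of 20.8. The called stretch thus differed in width and place, and the mTEC-II peak was the 1 that reached the Dnmt3l start. In GRCm38.p6 the Aire start lies 1323 bases after the Dnmt3l start. If that distance holds in mm9, the called peaks of mTEC-II, mTEC-III and mTEC-IV all span the Aire start, that of mTEC-IV at its very edge. Each fold is the authors' own value.

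At Fezf1, the 3 peaks in Cadps2 were in the mTEC-IV list alone, with folds in the authors' deposited table of 11.1, 7.38 and 23.3. The promoter peak was in the lists of mTEC-II, mTEC-III and mTEC-IV, and the peak at 5892 bases in those of mTEC-II and mTEC-IV. At the Fezf2 start, the authors' deposited table for mTEC-III gave 1 peak of 12379 bases with a fold of 73.7, ranked 16 of that list. There the authors' deposited lists also gave peaks of 10439 and 2047 bases for mTEC-II, of 7209 bases for mTEC-IV, and of 5473 and 1927 bases for mTEC-I. At 34905 bases upstream of Fezf2, the authors' deposited tables gave a peak of 10321 bases and another of 2861 bases in mTEC-II, peaks of 6515 and 2425 bases in mTEC-III, and peaks of 1067 and 957 bases in mTEC-IV. At 60534 bases the widest called peak was that of mTEC-III, 6013 bases with a fold of 40 in the authors' deposited table.

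**Figure D4:**
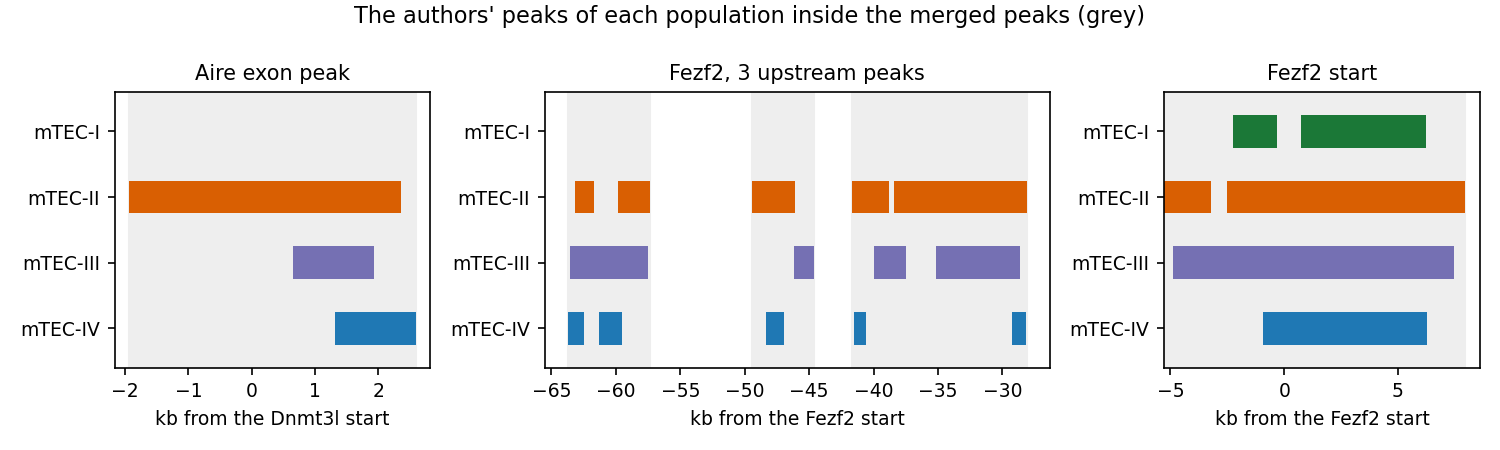
The authors' peaks of each population (coloured bars) inside the merged peaks (grey) at the Aire exon peak, at 3 upstream Fezf2 peaks and at the Fezf2 start, by distance in kb from the Dnmt3l or Fezf2 start along the direction of the gene. mTEC-I has bars at the Fezf2 start alone, and mTEC-II has the longest bar at the Aire exon peak (4303 bases) and in the right-hand upstream peak (10321 bases).

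Genes that act around the members were compared with limma, each population against the mean of the other 3, on H3K4me2 summed over the peaks of a gene. A gene is said to be called higher or lower at an adjusted p under 0.05 over all 15738 genes. The lists were chosen with earlier results of these data known, and most genes named from them were picked by smallest adjusted p. Their p-values are therefore no test of genes chosen beforehand. For mTEC-II 8.56% of all genes were called higher and 11.2% lower. The shares were 17.2% and 17.7% in mTEC-I, 12.1% and 16.7% for mTEC-III, and 20.4% and 12.6% in mTEC-IV. With library totals set equal within merged peaks, the counts in mTEC-II turned from 1347 higher and 1759 lower to 1948 and 1016, and in mTEC-IV from 3214 and 1988 to 2633 and 3324. Over fits that each left out 1 library, the mTEC-II counts ran from 351 to 2256 higher and from 411 to 3393 lower, lowest without an mTEC-II library.

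RANK, CD40 and the lymphotoxin beta receptor signal to NF-kappaB and drive mTEC to the mature, Aire-expressing state. Of the 28 genes of this pathway listed, 25 had a value, and mTEC-II had 8 called higher and 5 lower, with a median log2 change of 0.1 against -0.09 over all genes. Of all genes 8.56% were called higher and 11.2% lower in mTEC-II. Among receptors, Cd40 was higher in mTEC-II by 0.75 ± 0.11 on the log2 scale (SE, adjusted p = 0.00028), with 295 ± 6.5 against means of 125 to 238 elsewhere. Tnfrsf11a, which encodes RANK, was at 871 ± 62 in mTEC-II, 731 ± 100 in mTEC-I, 671 ± 0.11 in mTEC-IV and 647 ± 52 in mTEC-III, a log2 change of 0.35 ± 0.076 in mTEC-II (adjusted p = 0.0043). This gene was singled out with its values in view, and its call was lost without mTEC-II replicate 2. Ltbr, the lymphotoxin beta receptor, was lower in mTEC-II (log2 change -0.34 ± 0.093, adjusted p = 0.018).

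Among the signal carriers, Traf1 was higher in mTEC-II (0.8 ± 0.12, adjusted p = 0.00035), as were Traf2 (0.41 ± 0.085, adjusted p = 0.0036) and Ikbkb, the kinase of the classical pathway (0.46 ± 0.085, adjusted p = 0.0016). Chuk, the kinase of the alternative pathway, was lower (-0.37 ± 0.098, adjusted p = 0.015), as were the subunit gene Rela (-0.33 ± 0.093, adjusted p = 0.02) and Tnfaip3, which encodes the inhibitor A20 (-0.42 ± 0.07, adjusted p = 0.0007). Traf2 was at 306 ± 2.8 in mTEC-II, 286 ± 4.1 in mTEC-III, 285 ± 8.9 in mTEC-I and 149 ± 8.6 in mTEC-IV. It was called higher in mTEC-I and mTEC-III as well, so its call sets mTEC-II apart mainly from mTEC-IV. The calls of Cd40, Traf1 and Tnfaip3 held under all 17 alternatives. Without mTEC-II replicate 1 the list had 3 genes called higher and 1 lower, and without mTEC-II replicate 2 it had 4 and 1. Ikbkb was lost without replicate 1, and Traf2, Chuk, Ltbr and Rela were lost without either. Without mTEC-IV replicate 2 the count called lower was 3, Rela among those lost. Under equal totals in merged peaks 2 were called lower in mTEC-II, and Ltbr and Rela were lost.

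**Figure D5:**
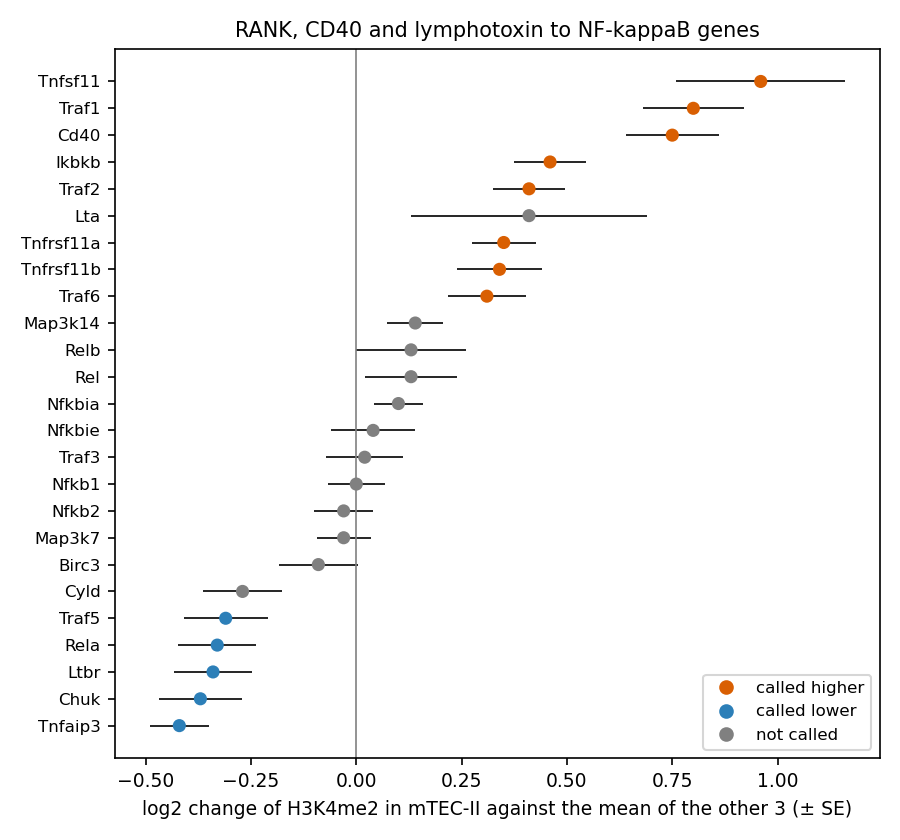
Log2 change of H3K4me2 in mTEC-II against the mean of the other 3 populations (horizontal axis, ± SE) for the 25 measured genes of the RANK, CD40 and lymphotoxin to NF-kappaB list, coloured by call at an adjusted p under 0.05. Tnfsf11, Traf1 and Cd40 (0.96, 0.8 and 0.75) lie farthest to the right and Tnfaip3 (-0.42) farthest to the left.

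Of these genes mTEC-IV had 2 called higher and 8 lower, mTEC-I had 7 and 6, and mTEC-III had 4 and 3. The shares of all genes were 20.4% and 12.6% in mTEC-IV, 17.2% and 17.7% in mTEC-I, and 12.1% and 16.7% in mTEC-III. Cd40 was lower in mTEC-IV by 0.89 ± 0.11 on the log2 scale (adjusted p = 1.2e-05) and Traf2 by 0.96 ± 0.085 (adjusted p = 2.8e-07). Nfkb2, the subunit gene of the alternative pathway, had a log2 change of 0.35 ± 0.07 in mTEC-IV (adjusted p = 0.00091) against -0.46 ± 0.07 in mTEC-I (adjusted p = 0.00011). Map3k14, which encodes the kinase NIK, was lower in mTEC-III (-0.37 ± 0.067, adjusted p = 0.00064). These 5 calls held under all alternatives run. The counts did not: over fits that each left out 1 library they ran from 3 to 11 lower in mTEC-IV, lowest without mTEC-IV replicate 1, and from 2 to 7 higher in mTEC-I, lowest without either mTEC-II library. In mTEC-III they ran from 1 to 6 higher, lowest without mTEC-II replicate 1 or either mTEC-III library, and from 1 to 4 lower, lowest without mTEC-III replicate 1.

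Proteins that work with Aire or Fezf2 (topoisomerases, the DNA-dependent kinase, elongation factors, CREB-binding protein, corepressors of the Tle and Chd families) made a list of 32 genes, 30 with a value. In mTEC-II limma called 0 higher, with 0 at an unadjusted p under 0.05, 1 by edgeR and 0 by DESeq2, and 5 lower. The median log2 change there was -0.14 against -0.09 over all genes, of which 8.56% were called higher and 11.2% lower. The counts higher and lower were 6 and 1 for mTEC-III, 3 and 2 in mTEC-I, and 2 and 2 for mTEC-IV. The shares of all genes were 12.1% and 16.7% in mTEC-III, 17.2% and 17.7% in mTEC-I, and 20.4% and 12.6% in mTEC-IV. Top1, a topoisomerase that Aire depends on, had a log2 change of -0.45 ± 0.087 in mTEC-II (adjusted p = 0.0019) against 0.37 ± 0.087 in mTEC-III (adjusted p = 0.0044). Tle4, a Groucho corepressor, was at 860 ± 1 in mTEC-IV against means of 438 to 479 elsewhere, a log2 change of 0.91 ± 0.063 (adjusted p = 1.7e-08), and was lower in mTEC-II (-0.38 ± 0.063, adjusted p = 0.00062). Over peaks within 20 kb of its start alone, the change of Tle4 in mTEC-IV was -0.09 with an adjusted p of 0.424, so that call rests on its peaks beyond 20 kb. Chd4, a chromatin remodeller, was higher in mTEC-IV (0.7 ± 0.2, adjusted p = 0.012). Its call was lost without either mTEC-IV library, that of Top1 in mTEC-II without mTEC-II replicate 1, and that of Top1 in mTEC-III without mTEC-III replicate 1 and over peaks within 20 kb alone. The count lower in mTEC-II was 1 without mTEC-II replicate 1, 2 without replicate 2, 3 without mTEC-IV replicate 2, and 12 and 10 without mTEC-I replicates 1 and 2. The count higher in mTEC-III was 2 and 1 without mTEC-III replicates 1 and 2, and 10 without mTEC-I replicate 2. For mTEC-I the count higher ran from 1 to 6 and for mTEC-IV the count lower from 0 to 6, both highest without mTEC-I replicate 1.

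Of 30 genes listed for tissue antigens, 12 had a value, and the other 18, among them Ins2, Mup1, Tff3 and Alb, had no merged peak. Whether each depends on Aire or Fezf2 was not tested here. In mTEC-II 4 were called higher and 1 lower, with a median log2 change of 0.27 against -0.09 over all genes. Of all genes 8.56% were called higher and 11.2% lower there. Csn2, a milk casein and classical Aire-dependent antigen, was at 121 ± 1.1 in mTEC-II, 58 ± 8.8 in mTEC-III, 35.5 ± 0.35 in mTEC-IV and 17.2 ± 9 in mTEC-I (SD, n = 2), a log2 change of 1.88 ± 0.25 in mTEC-II (adjusted p = 0.00011). Its change in mTEC-I was -1.91 ± 0.25 (adjusted p = 3e-05). This is the order of the Aire exon peak. Calb1, a calcium-binding protein of neurons, was at 114 ± 0.14, 58.5 ± 9.6, 53.6 ± 7.4 and 29.2 ± 8 in the same populations, a log2 change of 1.34 ± 0.2 in mTEC-II (adjusted p = 0.0003). Resp18, a neuroendocrine secretory protein, was at 58.9 ± 5.2 in mTEC-II against means of 8.81 to 25.4, a log2 change of 2.02 ± 0.36 (adjusted p = 0.0011), and lost its call without mTEC-II replicate 2. Mbp, a myelin protein, was higher in mTEC-II by 0.35 ± 0.079 (adjusted p = 0.0057) and lost its call without either mTEC-II library. Mbp was at 470 ± 9.2 in mTEC-II, 423 ± 21 in mTEC-I, 415 ± 22 in mTEC-III and 286 ± 31 in mTEC-IV. The calls of Csn2 and Calb1 held under all 17 alternatives, and the count higher in mTEC-II was 2 without mTEC-II replicate 2. Calb1, Resp18 and Mbp are also genes of neural or neuroendocrine cells, and of 5 neuron markers 2 were called higher and 0 lower in mTEC-II (0 lower also at an unadjusted p under 0.05 and by edgeR and DESeq2): Rbfox3 (0.92 ± 0.15, adjusted p = 5.4e-04) and Tubb3 (0.63 ± 0.2, adjusted p = 0.0344). The counts were the same in mTEC-IV, with Tubb3 (0.58 ± 0.2, adjusted p = 0.031) and Syt1 (0.35 ± 0.071, adjusted p = 0.0012) higher. Of all genes 8.56% were called higher in mTEC-II and 20.4% in mTEC-IV. The neuron markers summed to 1726 to 1819 in mTEC-II, 1838 to 1867 in mTEC-IV, 1454 to 1715 for mTEC-III and 1153 to 1425 for mTEC-I, and their part in the result was not tested.

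Of the antigen genes mTEC-III had 1 called higher and 4 lower, mTEC-IV had 3 and 4, and mTEC-I had 0 and 4 (limma, with 0 higher at an unadjusted p under 0.05 and 0 by edgeR or DESeq2). The shares of all genes were 12.1% and 16.7% in mTEC-III, 20.4% and 12.6% in mTEC-IV, and 17.2% and 17.7% in mTEC-I. Krt10, a keratin of differentiated epidermis, was higher in mTEC-III by 0.78 ± 0.082 (adjusted p = 5.7e-06), with a log2 change of -0.5 ± 0.082 in mTEC-II (adjusted p = 0.00057). Npy, a neuropeptide, and Fabp7, a lipid-binding protein of glia, were higher in mTEC-IV by 0.96 ± 0.15 (adjusted p = 0.0001) and 1.11 ± 0.2 (adjusted p = 0.00039). The Npy call was lost over peaks within 20 kb alone, and Krt10 in mTEC-II was lost without mTEC-II replicate 1. The counts lower in mTEC-III ran from 0, without mTEC-III replicate 1, to 5 over fits that left out 1 library. Those lower in mTEC-I ran from 2 to 5, lowest without either mTEC-II or mTEC-IV library or mTEC-III replicate 2, and those lower in mTEC-IV from 2 to 5, lowest without mTEC-IV replicate 2. In mTEC-II the count lower ran from 0, without mTEC-II replicate 1, to 3, without mTEC-I replicate 1, and in mTEC-III the count higher reached 3 without mTEC-I replicate 2.

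DNA methylation genes were listed because Dnmt3l is the gene name the Aire exon peak carries, and all 16 had a value. In mTEC-II limma called 0 of them, with 0 higher and 3 lower at an unadjusted p under 0.05. In that contrast edgeR called 0 higher and 2 lower, and DESeq2 called 0 in either direction. The partners of Dnmt3l in de novo methylation, Dnmt3a and Dnmt3b, were not called in any population. Dnmt3a lay between 463 ± 6.7 and 532 ± 37, and Dnmt3b between 171 ± 12 and 210 ± 12. Dnmt1, the maintenance methyltransferase, was lower in mTEC-IV (-0.62 ± 0.1, adjusted p = 0.00022), and Uhrf2, a reader of modified cytosine, was higher in mTEC-I (0.47 ± 0.094, adjusted p = 0.0013). The oxidases of methylcytosine differed among themselves: Tet1 was higher in mTEC-I (0.49 ± 0.074, adjusted p = 0.00012) and lower in mTEC-III (-0.5 ± 0.074, adjusted p = 0.00013), while Tet2 (0.4 ± 0.075, adjusted p = 0.00089) and Tet3 (0.74 ± 0.14, adjusted p = 0.00091) were higher in mTEC-III. Of the list mTEC-I had 4 called higher, mTEC-III 2 higher and 2 lower, and mTEC-IV 3 lower. The directions left empty were lower for mTEC-I and higher for mTEC-IV, each with 1 gene at an unadjusted p under 0.05 in limma and 0 called by edgeR and DESeq2. Without mTEC-I replicate 1 the counts were 5 higher in mTEC-III, 3 lower in mTEC-I and 2 lower in mTEC-II, and without mTEC-I replicate 2 the count lower in mTEC-II was 3. Those lower in mTEC-III and mTEC-IV fell to 1 without either mTEC-IV library or without mTEC-II replicate 2, and for mTEC-III also without mTEC-II replicate 1 or mTEC-III replicate 1, for mTEC-IV also without mTEC-III replicate 1.

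Genes that neighbour the 3 loci were compared to show how far the pattern of each locus extended, and 9 of 10 had a value. Beside Aire, Pfkl, a subunit of phosphofructokinase, was higher in mTEC-I (0.5 ± 0.11, adjusted p = 0.0024) and was at 157 ± 13 in mTEC-II. Icosl, the ligand of the T cell receptor ICOS, was at 451 ± 21 in mTEC-II, 380 ± 12 in mTEC-IV, 355 ± 46 in mTEC-I and 334 ± 8.2 in mTEC-III, a log2 change of 0.34 ± 0.082 in mTEC-II (adjusted p = 0.0084) that lost its call without either mTEC-II library. Lrrc3, a membrane protein with leucine-rich repeats, was higher in mTEC-I (0.51 ± 0.12, adjusted p = 0.0047) and lower in mTEC-III (-0.61 ± 0.12, adjusted p = 0.0015), calls lost without mTEC-I replicate 2 and mTEC-III replicate 1. The cation channel gene Trpm2 had no value.

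Around Fezf2, the peak given to Cadps itself was called in no population and lay between 166 ± 27 in mTEC-I and 203 ± 8.3 in mTEC-IV, while 7 Fezf2 peaks lie in its introns. Ptprg, a receptor tyrosine phosphatase, had a log2 change of 0.29 ± 0.067 in mTEC-IV (adjusted p = 0.0034), against -0.33 ± 0.067 in mTEC-I (adjusted p = 0.0015), and neither call held over peaks within 20 kb alone. The mTEC-IV call of Ptprg was also lost without mTEC-IV replicate 2. Synpr, a synaptic vesicle protein, was at 62.4 ± 8.1 in mTEC-IV, 7.43 ± 0.042 in mTEC-II, 3.1 ± 4.4 in mTEC-I and 2.44 ± 0.11 in mTEC-III, a log2 change of 3.89 ± 0.67 in mTEC-IV (adjusted p = 0.00027). The mTEC-I call of Synpr (-2.19 ± 0.67, adjusted p = 0.019) was lost without mTEC-I replicate 2 and under edgeR and DESeq2.

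Around Fezf1, the 2 peaks given to Cadps2 summed to 409 ± 3.1 in mTEC-IV, 314 ± 21 in mTEC-I, 309 ± 22 in mTEC-III and 233 ± 17 in mTEC-II. Its log2 change was 0.53 ± 0.083 in mTEC-IV (adjusted p = 0.00012) against -0.55 ± 0.083 in mTEC-II (adjusted p = 0.00032). Like the Fezf1 peaks in its introns it was highest in mTEC-IV, but mTEC-II was the lowest population for Cadps2 and, by its means, the second highest at those 3 peaks. Aass, an enzyme of lysine breakdown, was at 131 ± 29 in mTEC-IV, 87.1 ± 5.7 in mTEC-II, 78 ± 9.5 in mTEC-III and 57.6 ± 19 in mTEC-I, the order of Fezf1. Its log2 change was 0.83 ± 0.19 in mTEC-IV (adjusted p = 0.0029) against -0.76 ± 0.19 in mTEC-I (adjusted p = 0.0055), calls lost without mTEC-IV replicate 2 and mTEC-I replicate 2, and that in mTEC-I also over peaks within 20 kb alone. Ptprz1, another receptor tyrosine phosphatase, was higher in mTEC-I (0.48 ± 0.094, adjusted p = 0.0011) and lower in mTEC-III (-0.42 ± 0.094, adjusted p = 0.003, lost without mTEC-III replicate 1 and over peaks within 20 kb alone). In all, 1 of the 9 neighbours was called higher and 1 lower for mTEC-II, 4 and 0 in mTEC-IV, 3 and 3 for mTEC-I, and 0 and 3 in mTEC-III. Synpr is 1 of the 4 in mTEC-IV, and it passed the filter through that population alone. The shares of all genes called were 8.56% higher and 11.2% lower in mTEC-II, and 20.4% and 12.6% in mTEC-IV. They were 17.2% and 17.7% in mTEC-I, and 12.1% and 16.7% in mTEC-III. For the empty directions in mTEC-III and mTEC-IV, limma gave 0 at an unadjusted p under 0.05 and edgeR and DESeq2 gave 0. Without mTEC-IV replicate 2 the count higher in mTEC-IV was 1, and without mTEC-III replicate 1 the count lower in mTEC-III was 0. In mTEC-II the count higher was 0 without either mTEC-II library, and the count lower was 2 without either mTEC-I library.

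Genes elsewhere in the genome whose summed H3K4me2 was most like the members over the 8 libraries were ranked by Pearson's r of log2(value + 1), as a description over libraries that share 4 populations. The Aire exon peak was most like A930019D19Rik (r = 0.988), Ppm1h (0.984), Msi1 (0.984), Slc6a7 (0.983) and Adam30 (0.98). Adam30 was at 89.7 ± 11 in mTEC-II, 26.4 ± 14 in mTEC-III, 17.9 ± 4.3 in mTEC-IV and 8.59 ± 4.5 in mTEC-I. The Fezf1 sum was most like C130026L21Rik (0.997), Tbr1 (0.995), Prcp (0.993), Mir6541 (0.993) and Sox5 (0.993). The distal peaks in that sum were called in mTEC-IV alone, so this ranking leans on levels that favour mTEC-IV. Tbr1, a T-box transcription factor of cortical neurons, was at 613 ± 4.4 in mTEC-IV, 391 ± 0.49 in mTEC-II, 334 ± 1.2 in mTEC-III and 211 ± 37 in mTEC-I. The Fezf2 sum was most like Cmklr1 (0.984), Eif3h (0.983), Adam8 (0.981), Dtx2 (0.981) and Mir124a-2 (0.978). Cmklr1, the chemerin receptor, was at 92.4 ± 6.7 in mTEC-III, 85.2 ± 1.1 in mTEC-II, 28.1 ± 6.9 in mTEC-IV and 17.9 ± 7.9 in mTEC-I.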

How the data were processed

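H3K4me2 was measured in 8 libraries, 2 of each population. The submitters' processing notes name build mm9, Picard 1.108 and bcl2fastq 2.15.0.4, while the sources used here give no aligner. Per the file headers, the authors used HOMER to give each library's signal in 29472 merged peaks as tags per 10000000 tags, with the nearest gene. The authors' deposited peak lists give, per the file headers, a normalized tag signal, a fold (ratio) over control and a p-value per peak. Here, 2 mitochondrial peaks were left out, and genes were summed over their peaks. Features had to reach 10 tags per 10000000 in 2 or more libraries. limma 3.58.1 (limma-trend, R 4.3.3) was fitted on log2(value + 1) over all 8 libraries, with each population against the mean of the other 3, 4 residual degrees of freedom and Benjamini-Hochberg adjustment over all features. A log2 change on this scale understates the change of low genes. Values times library totals gave steps of 0.5 tags for 100% of values (tolerance 0.1), and these recovered tags, in counts of 2 per tag, entered edgeR 4.0.16 and DESeq2 1.42.0 as alternatives. The limma script was tested on simulated data. The limit for a count of 0 is 3 tags.

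Members and gene lists were chosen with earlier results of these data known. Named genes were all members, the 5 most like genes with none of their peaks within 1 Mb, every neighbour gene, markers, and, in each list, up to 4 called genes in each direction of smallest adjusted p in mTEC-II and up to 2 in each other population, of which the text gives those described. Gene assignment is by nearest start, so a distal peak may belong to another gene. Peak sequences were not read, since no mm9 genome was used here. Alternatives were other pseudocounts (0.5 and 5), no filter, TMM factors, equal totals in merged peaks, a replicate block, the count tests, peaks within 20 kb alone, and leaving out each library. Peak lists were overlapped by at least 1 base.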

Additional observations from a re-analysis of the deposited data

How the results depend on the processing

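Depth limits mTEC-I most: 1 tag in its replicate 2 weighs 5.88 tags per 10000000. At 5 member peaks where mTEC-I lay lowest, its counting interval overlapped that of another population, and the difference was not tested. With 2 libraries per population, leaving out 1 leaves a lone library assumed to vary like the others, and counts of calls both fell and rose. The cause of a change was not tested. Tags in peaks made up 31.9% to 35.4% of libraries. With equal totals in merged peaks, the Fezf2 peak at 34905 bases in mTEC-II gave 1.29, the Aire exon peak in mTEC-II 1.34, the Fezf1 sum in mTEC-IV 2.22, genes lower in mTEC-II 1016, NF-kappaB list lower in mTEC-II 2, partner list lower in mTEC-II 3, genes lower in mTEC-IV 3324, partner list lower in mTEC-IV 7, neighbour list lower in mTEC-IV 1. With DESeq2 on recovered tags, NF-kappaB list higher in mTEC-I gave 2, partner list lower in mTEC-I 0, tissue antigen list lower in mTEC-I 2, partner list lower in mTEC-IV 1, peaks lower in mTEC-II 3372. With edgeR on recovered tags, genes higher in mTEC-II gave 2021, partner list higher in mTEC-II 1, genes lower in mTEC-II 3065, partner list lower in mTEC-II 11, tissue antigen list lower in mTEC-II 2, DNA methylation list lower in mTEC-II 2, neighbour list lower in mTEC-II 2, tissue antigen list higher in mTEC-III 3, partner list lower in mTEC-III 2, partner list lower in mTEC-IV 4, peaks higher in mTEC-II 5278, peaks lower in mTEC-II 4412. Over peaks within 20 kb of the start, partner list higher in mTEC-I gave 5, tissue antigen list higher in mTEC-I 1, partner list lower in mTEC-I 1, tissue antigen list lower in mTEC-I 2, DNA methylation list lower in mTEC-I 1, neighbour list lower in mTEC-I 1, partner list lower in mTEC-III 0, DNA methylation list lower in mTEC-III 1, neighbour list lower in mTEC-III 1, partner list higher in mTEC-IV 1, tissue antigen list higher in mTEC-IV 1, neighbour list lower in mTEC-IV 1. With TMM factors, the Aire exon peak in mTEC-II gave 1.31, partner list lower in mTEC-II 3, partner list lower in mTEC-IV 4. With a pseudocount of 5, the Aire exon peak in mTEC-II gave 1.22, tissue antigen list lower in mTEC-II 2. The change of Tle4 reversed over peaks within 20 kb, to 0.17 in mTEC-I, 0.21 in mTEC-III and -0.09 in mTEC-IV. Leaving out each library in turn gave these ranges: the Fezf2 peak at 34905 bases in mTEC-II 1.13 to 1.3, the Aire exon peak in mTEC-II 1.19 to 1.33, the Fezf1 sum in mTEC-IV 2.24 to 2.38, NF-kappaB list higher in mTEC-I 2 to 7, partner list higher in mTEC-I 1 to 6, partner list lower in mTEC-I 0 to 2, tissue antigen list lower in mTEC-I 2 to 5, DNA methylation list lower in mTEC-I 0 to 3, genes higher in mTEC-II 351 to 2256, NF-kappaB list higher in mTEC-II 3 to 9, partner list higher in mTEC-II 0 to 1, tissue antigen list higher in mTEC-II 2 to 6, neighbour list higher in mTEC-II 0 to 1, genes lower in mTEC-II 411 to 3393, NF-kappaB list lower in mTEC-II 1 to 6, partner list lower in mTEC-II 1 to 12, tissue antigen list lower in mTEC-II 0 to 3, DNA methylation list lower in mTEC-II 0 to 3, neighbour list lower in mTEC-II 1 to 2, genes higher in mTEC-III 951 to 3013, NF-kappaB list higher in mTEC-III 1 to 6, partner list higher in mTEC-III 1 to 10, tissue antigen list higher in mTEC-III 1 to 3, DNA methylation list higher in mTEC-III 2 to 5, genes lower in mTEC-III 1244 to 3519, NF-kappaB list lower in mTEC-III 1 to 4, partner list lower in mTEC-III 1 to 3, tissue antigen list lower in mTEC-III 0 to 5, DNA methylation list lower in mTEC-III 1 to 3, neighbour list lower in mTEC-III 0 to 4, genes higher in mTEC-IV 1899 to 4134, NF-kappaB list higher in mTEC-IV 1 to 3, partner list higher in mTEC-IV 1 to 4, DNA methylation list higher in mTEC-IV 0 to 1, neighbour list higher in mTEC-IV 1 to 5, genes lower in mTEC-IV 1062 to 2834, NF-kappaB list lower in mTEC-IV 3 to 11, partner list lower in mTEC-IV 0 to 6, tissue antigen list lower in mTEC-IV 2 to 5, DNA methylation list lower in mTEC-IV 1 to 3, peaks higher in mTEC-II 311 to 5870, peaks lower in mTEC-II 242 to 5113, peaks higher in mTEC-III 1158 to 5941, peaks lower in mTEC-III 1362 to 6710, peaks higher in mTEC-IV 3144 to 8997, peaks lower in mTEC-IV 2369 to 5826. Whether replicate numbers pair the samples is not known. Deviations of same-numbered libraries correlated at -0.013 to 0.016 over 6 pairs of populations, which shows no shared deviation but cannot exclude shared animals or sorts. With the replicate number as a block, 1334 genes were higher and 1715 lower in mTEC-II, and no count or call given moved past its threshold. Of 84 gene tests named by rule or picked out, 36 kept direction and call under every alternative that gave a value.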
